A study of Drosophila melanogaster with 18 samples.

Results

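The RNA-seq libraries of Cp190 RNAi Chro RNAi cells were compared with those of wild type (WT) cells, 3 libraries against 3, or 6 of the 18 samples of the series and 6 of its 12 RNA-seq libraries. All are from BG3, a cultured Drosophila melanogaster line that was derived from the larval central nervous system, and whose neural and glial markers are given below. In the knockdown, double-stranded RNA (dsRNA) against Cp190 and against Chro was transfected together, and cells were harvested after 72 hours. The WT libraries carry no RNAi label, and no mock transfection or dsRNA against an unrelated sequence is described for them, so transfection and the loss of Cp190 and Chro cannot be told apart here. The remaining knockdowns, of BEAF-32 alone and of BEAF-32 with Dref, were used only where stated. The protein level of the targets was not analysed here, and the sources do not say whether replicates are independent cultures. The p-values therefore reflect variation among 3 libraries a group, part or all of which may be technical. The question was which genes change when both architectural proteins are depleted at once.

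Cp190 is a zinc finger and BTB domain protein that does not choose most of its sites by itself but is brought to chromatin by DNA-binding insulator proteins such as BEAF-32, CTCF and su(Hw). Chro (Chromator) is a chromodomain protein found in interbands of polytene chromosomes and, during mitosis, in the spindle matrix. Both are known from fly cells to sit at borders of topologically associating domains (TADs) and at the promoters of active, widely expressed genes.

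The dsRNA templates show which part of each message was targeted. After removal of the phage promoter that was added to each primer, the gene-specific ends, written 5′ to 3′, were
Cp190 forward: cggcatggacatcatcataa
Cp190 reverse: acagttggacagcccagttc
Chro forward: ctttgttattcgcacaggca
Chro reverse: caggaggaattggcaaacat
Each of these 20-base primers matched its gene once. The Cp190 pair spans 406 bp on the minus strand of chromosome arm 3R (dm6, chr3R:15273621-15274026) within the gene at chr3R:15270432-15275241. The Chro pair spans 348 bp at chr3L:22877523-22877870 within the gene at chr3L:22873702-22878984, also on the minus strand. Both amplicons lie wholly in coding exons.

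Both targeted mRNAs were lower in the knockdown, although neither was removed. Levels are given as CPM, the count of a gene relative to the library total over genes, with TMM scaling for differences in RNA composition. Cp190 mRNA was at 436, 432 and 422 CPM in the 3 WT libraries and at 311, 286 and 289 CPM in the 3 Cp190 RNAi Chro RNAi libraries, without overlap. Its log2 fold change was -0.54 ± 0.05 (SE, edgeR quasi-likelihood test, Benjamini-Hochberg adjusted p = 6.1e-13). Chro mRNA was at 318, 330.2 and 338 CPM in WT and at 203, 186 and 196 CPM in the knockdown, again without overlap, a log2 fold change of -0.75 ± 0.05 (edgeR adjusted p = 8.3e-17). In the annotation an exon of Cp190 overlaps one of Zip88E on the opposite strand, and exons of Chro overlap CG11109 on the opposite strand and a noncoding RNA on its own, so reads of these stretches may not all be counted to the target.

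The fall of these messages was not limited to the cells that received their dsRNA. On a scaling of all 12 libraries together, Cp190 mRNA was at 274, 296 and 308 CPM in BEAF-32 RNAi Dref RNAi cells, beside 315, 287 and 289.9 CPM in Cp190 RNAi Chro RNAi cells. Chro mRNA was at 164, 169 and 160 CPM in BEAF-32 RNAi Dref RNAi cells, below all of the 204.9, 187 and 197 CPM in the cells that received Chro dsRNA. In a fit of the 9 knockdown libraries without WT, the log2 difference from BEAF-32 RNAi Dref RNAi was 0.02 ± 0.13 for Cp190 and 0.25 ± 0.25 for Chro (edgeR adjusted p = 0.999 for both). That fit holds BEAF-32 RNAi replicate 3, which stood apart as described further on. Without it Chro mRNA was higher than in BEAF-32 RNAi Dref RNAi, by 0.25 ± 0.05 on the log2 scale (edgeR adjusted p = 7.3e-04), and the difference of Cp190 mRNA was 0.02 ± 0.05 (edgeR adjusted p = 0.87). Against the other BEAF-32 RNAi libraries Cp190 was lower by a log2 difference of -0.15 ± 0.06 (edgeR adjusted p = 0.039) and Chro by -0.18 ± 0.06 (edgeR adjusted p = 0.010). The mRNAs that were not targeted fell as well. BEAF-32, which binds CGATA sites, went from 88.5, 91.8 and 90.1 CPM in WT to 68.3, 69.4 and 80.4 CPM (log2 fold change -0.31 ± 0.07, edgeR adjusted p = 1.4e-04, but 0.21 in a fit of all 12 libraries), and Dref, the factor of the DNA replication-related element, from 203, 204 and 211 CPM to 154, 137 and 144 CPM (log2 fold change -0.50 ± 0.05, edgeR adjusted p = 4.9e-11). Levels of Cp190 and Chro mRNA thus lay well below WT and near those of the other knockdowns.

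**Figure D1:**
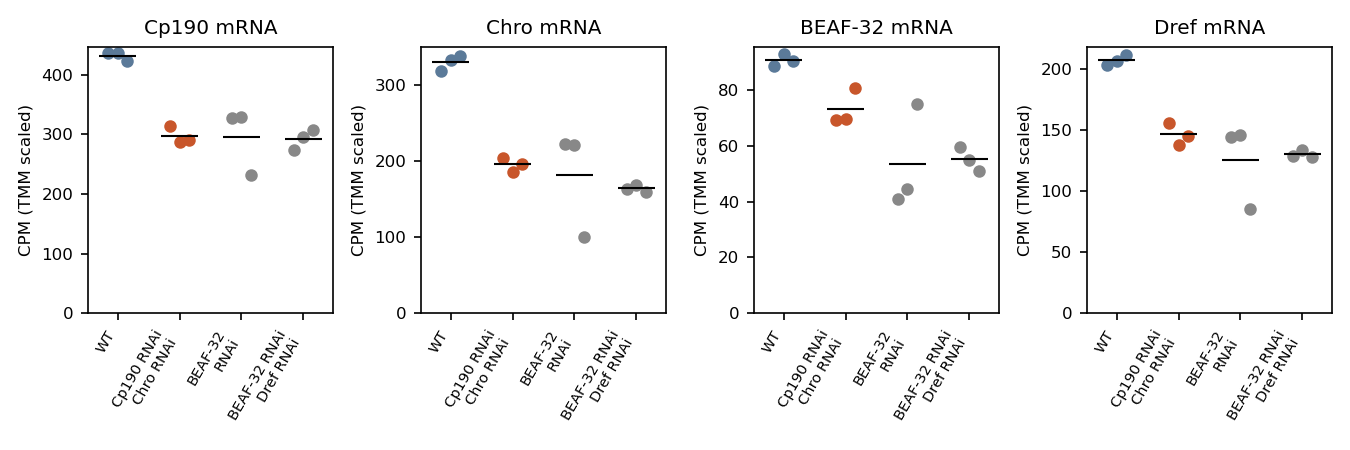
CPM (TMM scaled over 12 libraries, y axis from 0) of the mRNAs of the 4 RNAi targets in each library, by group. Points are libraries and bars are group means of 3. The Cp190 RNAi Chro RNAi points lie below every WT point for all 4 genes, and for Cp190 their range overlaps that of BEAF-32 RNAi Dref RNAi.

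Of 16727 genes in the count files, 9733 had at least 10 counts over the 6 libraries and were tested. At an adjusted p under 0.05, 2977 genes rose and 2941 fell, so that 60.8% of tested genes were called, 30.6% upward and 30.2% downward. Counts of called members below are read against these shares, which hold genes of all levels. Lists were not matched for level. Of genes with an annotated start, 45.2% of those above 100 CPM fell and 40.9% of those at 1 to 10 CPM rose. How far the level of its members goes with the counts of a list was not tested. The changes upward were larger. The median gene that rose was 1.71-fold higher, while the median gene that fell was 1.34-fold lower. At the threshold for differentially expressed genes (DEGs), a 4-fold change in either direction (2 on the log2 scale), 697 genes rose (7.16% of tested genes) and 108 fell (1.11%). A fit of all 12 libraries, whose spread is estimated over all groups, called 1890 genes upward and 1648 downward, and a stricter filter on low counts (filterByExpr) left 410 DEGs that rose and 71 that fell. Where that fit of 12 libraries ended the call of a named gene or moved the count of a list by more than 1.5 times, it is given below, apart from counts of at most 3 genes. The 3 libraries of one group lay wholly above those of the other for 64.4% of tested genes.

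Direction went with level. Among the 9682 tested genes with an annotated start, 1492 had a mean under 1 CPM over the 6 libraries, of which 435 rose and 59 fell, and among 1617 genes at 1 to 10 CPM, 662 rose and 275 fell. At 10 to 100 CPM the order turned, with 1053 of 4097 genes rising and 1469 falling. Of 2476 genes above 100 CPM, 817 rose and 1120 fell. The knockdown libraries held a count for more genes, 10656 to 10841 against 10051 to 10118 in WT. Totals over genes were alike, 10489456 to 12202598 in WT and 9962250 to 12082059 in the knockdown. The share of reads without a unique alignment was 16 to 17% in WT and 21.9 to 22.5% in the knockdown, and the share at no annotated feature was 43.9 to 44.1% and 41.3 to 41.6%. These shares separate the groups, and their part in the results was not tested.

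**Figure D2:**
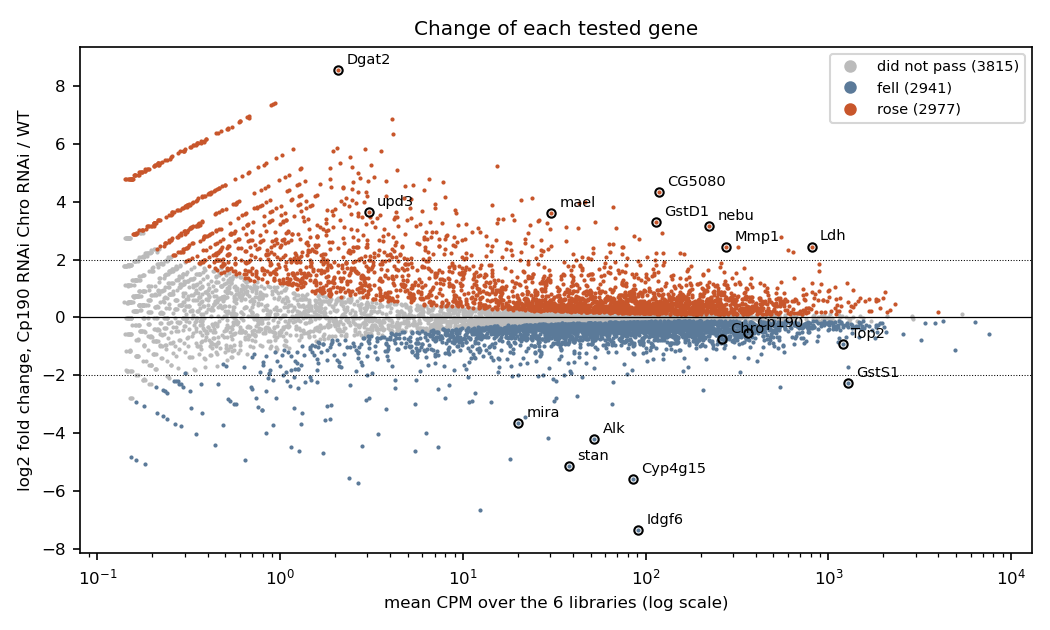
Log2 fold change (y axis, Cp190 RNAi Chro RNAi over WT) of each of 9733 tested genes against its mean CPM over the 6 libraries (x axis, log scale). Colours show the 2977 genes that rose, the 2941 that fell and the 3815 that did not pass, and dotted lines mark the DEG threshold. Large rises crowd at low levels, and Idgf6, Cyp4g15, stan and Alk are labelled among the genes with falls of more than 4 on the log2 scale.

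The genes that rose with the smallest p were abundant in the knockdown and differed little between replicates. nebu (CG10960 in the count files), a predicted sugar transporter, went from 44.7, 43.5 and 45.8 CPM in WT to 420.2, 407 and 377 CPM, a log2 fold change of 3.17 ± 0.06 (edgeR adjusted p = 6.3e-35). Ldh (ImpL3), lactate dehydrogenase, rose from 252, 247 and 252 CPM to 1338, 1419.5 and 1342 CPM, a log2 fold change of 2.45 ± 0.05. Dtg, named as a target of the BMP ligand Dpp, rose from 140.3, 143 and 141 CPM to 1027, 973 and 888 CPM (log2 fold change 2.77 ± 0.05). These levels leave a wide gap between the groups in every library. The BMP-binding protein cv-2 (log2 fold change 2.44) and the uncharacterized genes CG5080 (4.32) and CG44774 (2.35) were the other genes among the 6 with the smallest p.

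The largest rises were of genes with few or no reads in WT. Of the 9733 tested genes, 82 had no count in any WT library and 3 had none in any knockdown library. Many more called genes had only 1 to 3 counts over the whole lower group. Examples are Best2, with 1 count over WT and 14 over the knockdown, and GstD6, with 1 and 20. Such genes passed the count minimum only through the other group, which fixed their direction, so their calls are a description. They remain in the counts of called genes, of DEGs and of list members in this report. With the WT group set to a floor of 3 counts in all, Dgat2 (CG1942), a diacylglycerol acyltransferase that makes triglyceride, was at least 46.4-fold higher, with 50, 39 and 52 counts in the 3 knockdown libraries. The extracellular superoxide dismutase Sod3 had 28, 18 and 17 counts and was at least 20.7-fold higher. The cytochrome P450 Cyp6a21 (at least 20.4-fold), the photoreceptor myosin ninaC (at least 20.1-fold), the Iroquois homeodomain gene caup (at least 13.5-fold) and gnu, known from the cell cycles of the early embryo (at least 14.5-fold), were also absent from the WT reads. wat, a fatty acyl-CoA reductase of the tracheae, had 1, 0 and 1 counts in WT and 111, 82 and 82 in the knockdown, a ratio of 136 (95% exact binomial interval 37.2 to 1130.0, counting error only). Each of these stayed under 10 CPM in the knockdown, so the largest folds belong to messages that remained scarce.

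Among called genes with at least 10 counts in every WT library and groups that did not overlap, the 14 largest falls were 8 of genes above 10 CPM in WT and 6 of genes at 2.21 to 5.38 CPM, the largest of the latter being CG8861, with 56, 50 and 70 counts in WT and 1, 1 and 1 in the knockdown and a ratio of 59.4 (95% exact binomial interval 20 to 291, counting error only). Idgf6 (CG5210), a secreted chitinase-like imaginal disc growth factor, dropped from 182, 176 and 183 CPM to 1.12, 0.599 and 1.47 CPM, a log2 fold change of -7.35 ± 0.12 (edgeR adjusted p = 1.4e-36), the smallest p of any gene. Cyp4g15, a cytochrome P450 known from glia, went from 159.8, 164 and 178 CPM to 3.1, 2.4 and 4.82 CPM (log2 fold change -5.57 ± 0.11). The WT level of both was thus reduced to a few CPM in every knockdown library. stan (flamingo), the seven-pass cadherin of planar cell polarity, fell from 72.2, 76.4 and 72 CPM to 3.19, 2.0 and 1.14 CPM (log2 fold change -5.12 ± 0.15). The receptor tyrosine kinase Alk fell from 101, 95.7 and 100.0 CPM to 7.41, 4.6 and 4.0 CPM (log2 fold change -4.21 ± 0.12). In the planar polarity list, where 2 rose and 5 fell of 15 tested (median -0.03), pk fell next most (log2 fold change -1.85). The partners of stan at the membrane, Vang (169.6 to 159 CPM, means of WT and of the knockdown) and fz (162 to 159 CPM), did not pass the test.

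Falls of abundant messages were smaller in fold but sharp. GstS1, the sigma class glutathione S-transferase, went from 2113, 2070.1 and 2153 CPM to 427, 465 and 432 CPM, a log2 fold change of -2.26 ± 0.05. Apoltp, a lipid transfer apolipoprotein, fell by 2.40 and the adhesion protein Fas1 by 1.89 on the log2 scale. CG31808 (log2 fold change -6.64) and the testis cytochrome c Cyt-c-d, with 55, 38 and 63 counts in WT and 1, 2 and 0 in the knockdown and a ratio of 52.7 (95% exact binomial interval 17.7 to 258, counting error only), overlap on opposite strands, so their reads may not be separate measurements. Of tested genes, 37.2% have an exon that overlaps one on the opposite strand, 33.1% of those that rose and 39.5% of those that fell.

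Genes of chromatin architecture were mostly lower, each by a modest amount. Of 21 tested insulator proteins and cofactors, 2 rose and 16 fell, with a median log2 fold change of -0.33 beside -0.0031 over all tested genes. Apart from the targets, those with the largest falls included Ibf1 (-1.13), a partner of Cp190, the GAGA factor Trl (-0.79), mod(mdg4) (-0.73), pita (-0.62) and CTCF (-0.61). su(Hw), of the gypsy insulator, fell least (-0.21, with an edgeR adjusted p of 0.059 without knockdown replicate 3), and ZIPIC (CG7928) was at 34.3 to 34.2 CPM and did not pass. The embryonic insulator factors insv (0.56) and Elba3 (0.93) rose at under 10 CPM, and their calls were lost without knockdown replicate 2 (insv, edgeR adjusted p = 0.06) and without knockdown replicate 1 (Elba3, edgeR adjusted p = 0.13) or WT replicate 3 (edgeR adjusted p = 0.055). In the fit of all 12 libraries 12 members fell and none rose, and BEAF-32, su(Hw), insv and Elba3 lost their call. No list here was tested as a set.

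Partners of Chro followed. Of 12 tested members of the list of Chromator partners and the nucleosome remodelling factor NURF, none rose and 9 fell (median -0.41). pzg (Z4), the zinc finger protein that binds Chro in interbands, went from 439, 427 and 446 CPM to 245, 233 and 228 CPM, a log2 fold change of -0.89 ± 0.05. The NURF subunits E(bx) (-0.53) and Iswi (-0.43) fell less, and the kinase JIL-1, another interband protein, was at 193 to 184 CPM and did not pass. Among cohesin, condensin and Topoisomerase 2 genes, 1 rose and 17 fell of 20 tested (median -0.34). Top2, which untangles DNA, fell from 1584, 1562 and 1568 CPM to 866, 811 and 803 CPM, a log2 fold change of -0.93 ± 0.05. The condensin subunits Cap-D2 (-1.13), SMC2 (-0.97) and barr (-0.78) showed falls of like size, larger than those of the cohesin subunits SMC1 (-0.42) and SMC3 (Cap in the files, -0.27). vtd, the Rad21 subunit, was at 157 to 154 CPM without passing, and the cohesin loader Nipped-B was the member that rose (0.27). Over all 12 libraries, 4 of the Chromator list and 13 of the cohesin and condensin list fell, and SMC3 and Nipped-B lost their call.

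Heterochromatin proteins (1 rose and 18 fell of 25 tested, median -0.32), Polycomb subunits (1 rose and 17 fell of 22 tested, median -0.32) and the dosage compensation list (0 rose and 9 fell of 10 tested, median -0.44) leaned the same way. Su(var)3-7, a partner of HP1a, fell by 0.93 on the log2 scale, and the chromatin remodeler XNP, the fly ATRX, fell as well (-0.63). Pc fell (-0.52) while Psc, of the same complex, was at 105 to 98.9 CPM and did not pass. In the dosage compensation list the helicase mle (-0.66) and the RNA roX2 (-0.62) fell, as did roX1 (-2.19) at a level near 1 CPM. These falls are spread over many complexes, and none of those named in this paragraph except roX1 reached 2-fold. In the fit of all 12 libraries 10 heterochromatin, 9 Polycomb and 6 dosage compensation genes fell, and roX1 and roX2 lost their call.

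The mRNAs of cell cycle and DNA replication genes fell in most cases. The paper reports from flow cytometry that its knockdowns left cell cycle progression unchanged. Of 39 tested cell cycle genes, 1 rose and 35 fell (median -0.46), and of 38 DNA replication genes, 3 rose and 32 fell (median -0.42). The Cdk inhibitor dap fell most, from 171, 180.3 and 176 CPM to 75.7, 68.4 and 73.7 CPM (log2 fold change -1.27 ± 0.06). Mitotic genes followed, with the spindle checkpoint kinase BubR1 going from 307, 306 and 314 CPM to 172, 145 and 163 CPM (log2 fold change -0.95 ± 0.05), CycB3 at -0.95, the centralspindlin subunit tum at -0.97 and the mitotic kinase Cdk1 (cdc2) at -0.82. The G1 regulator CycE was at 53.5 to 50.1 CPM and did not pass. The phosphatase stg was the member of the cell cycle list that rose (0.37). With all 12 libraries fitted, 16 cell cycle and 9 replication genes fell, and tum and stg lost their call.

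In replication, thymidylate synthase (Ts, -0.88), the helicase subunits Mcm6 (-0.82) and Mcm2 (-0.69) and the clamp loader subunit Gnf1 (-0.71) fell, and Psf1 rose (0.38). The calls of the other members that rose, the sliding clamp PCNA (0.11) and the single-strand binding subunit RPA3 (0.16), were lost without any 1 of the WT libraries (edgeR adjusted p of 0.075 to 0.14 for PCNA and 0.069 to 0.14 for RPA3) or without knockdown replicate 2 (0.16 and 0.28), and for RPA3 also without knockdown replicate 3 (0.16). Of the GINS complex, Psf2 (-0.56) and Psf3 (-0.72) fell while Psf1 rose. Ts, PCNA and RPA3 lost their call in the fit of all 12 libraries. Cytoplasmic ribosomal protein genes fell often but by little (1 rose and 58 fell of 87 tested among 93 listed, median -0.20). The fit of all 12 libraries had 27 that fell, and without knockdown replicate 1 there were 6 that rose. For mitochondrial ribosomal protein genes, 13 rose and 12 fell of 72 tested among 73 listed (8 rose without knockdown replicate 2, and 8 rose and 5 fell in the fit of all 12 libraries). For proteasome subunits, 8 rose and 8 fell of 34 tested among 48 listed (5 fell without WT replicate 2 or WT replicate 3, and 5 rose and 2 fell in the fit of all 12 libraries). The medians of both lists lay within 0.05 of 0 on the log2 scale and changed sign without knockdown replicate 2.

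**Figure D3:**
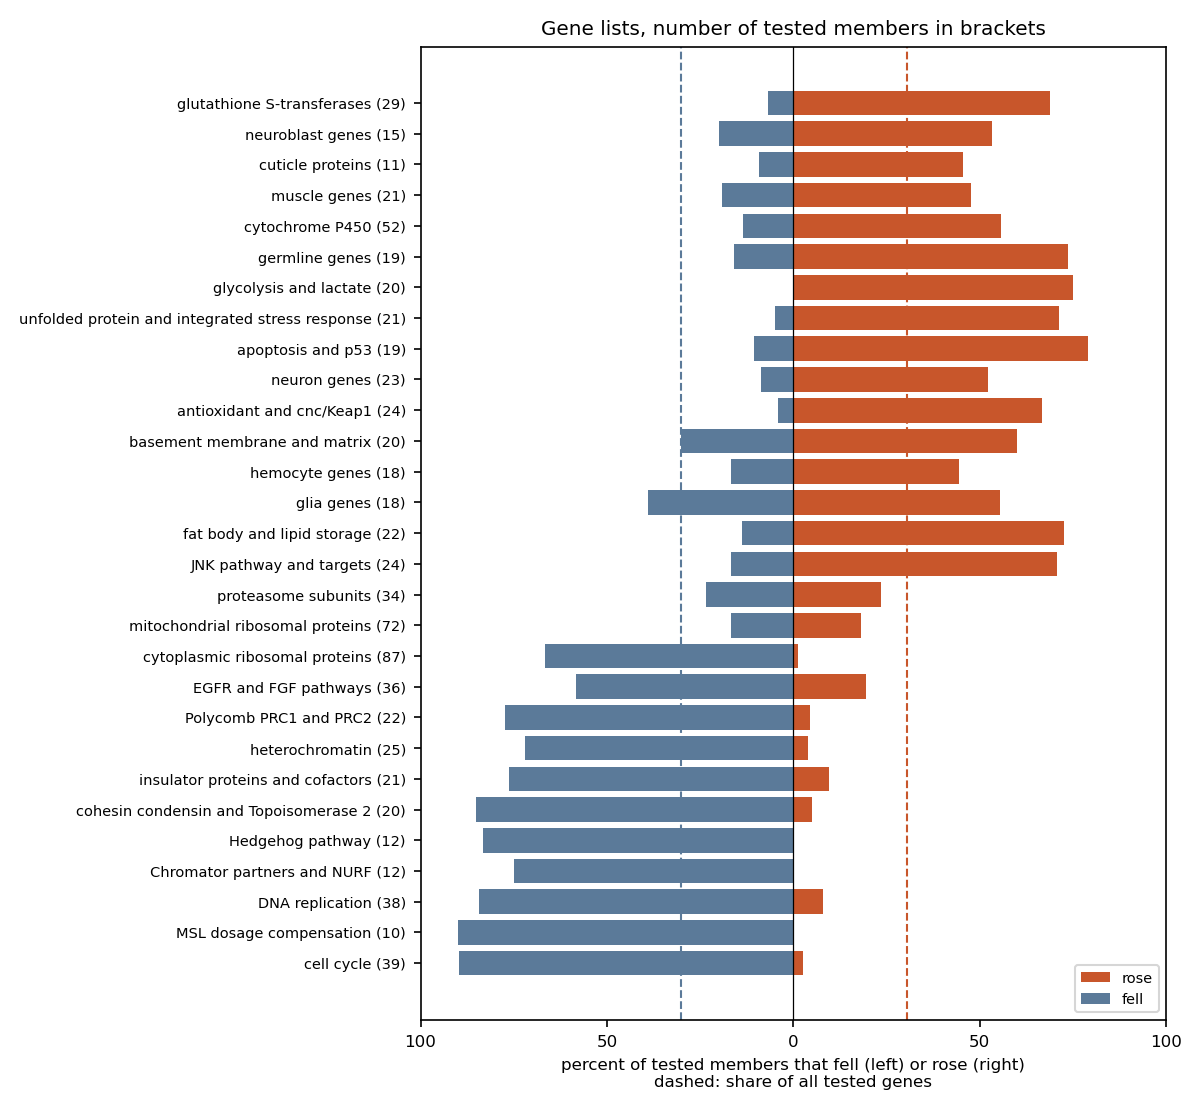
Percent of the tested members of each list that fell (left) and rose (right), sorted by median log2 fold change, for lists with at least 10 tested members. Dashed lines mark the shares of all tested genes, 30.2% down and 30.6% up, not matched for level. Dosage compensation and cell cycle genes extend farthest to the left (9 of 10 and 35 of 39), and apoptosis and glycolysis genes farthest to the right (15 of 19 and 15 of 20).

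In growth factor signalling, several receptors were lower and several ligands higher. Of 36 tested genes of the EGFR and FGF list, which also holds Alk and the PDGF/VEGF-like ligands, 7 rose and 21 fell (median -0.22). stumps, the adaptor of the FGF receptors, went from 118, 112 and 117 CPM to 14.3, 12.9 and 16.7 CPM (log2 fold change -2.98 ± 0.08), and the FGF receptor htl fell (-0.97), as did Egfr (-0.63), the feedback inhibitor aos (-1.25) and the PDGF/VEGF-like receptor Pvr (-0.49). The receptor btl was near 1 CPM and did not pass. Pvf2 rose from 40.3, 35.2 and 40.4 CPM to 157, 172 and 169 CPM (log2 fold change 2.1 ± 0.07) and Pvf3, its neighbour on chromosome arm 2L, from 2.88, 2.18 and 2.83 CPM to 16.4, 15.7 and 12.9 CPM (2.5 ± 0.19). The FGF ligands pyr, at 0.961, 0.454 and 0.25 CPM in WT and 7.41, 7.19 and 4.74 CPM in the knockdown (3.54 ± 0.35), and bnl (3.18) rose from about 1 CPM or less. Pvf1 (-0.95) and the EGFR ligands Krn (-0.71) and spi (-0.33) were ligands that fell, and the EGFR ligand vn was at 20.7 to 24.2 CPM and did not pass. The fit of all 12 libraries had 6 that rose and 12 that fell, and Pvr lost its call.

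Hedgehog genes were lower (0 rose and 10 fell of 12 tested among 13 listed, median -0.35). The transcription factor ci went from 771, 742 and 738 CPM to 384, 377 and 368 CPM (log2 fold change -0.99 ± 0.05), the transducer smo fell by 0.77 on the log2 scale, and the coreceptors ihog (-0.69) and boi (-0.59) fell with it. The ligand gene hh did not reach the count minimum. In the fit of all 12 libraries 5 fell, and boi lost its call.

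JNK signalling, a stress kinase cascade, and cell death genes were mostly higher. In the JNK list 17 rose and 4 fell of 24 tested (median 0.22), and 8 rose and 3 fell in the fit of all 12 libraries. Its target Mmp1, a matrix metalloproteinase, rose from 89.1, 89.2 and 80.3 CPM to 482, 443 and 466 CPM (log2 fold change 2.43 ± 0.05), with exons that overlap Pof on the other strand. The cytokine upd3 rose from 0.192, 0.363 and 0.75 CPM to 6.38, 4.8 and 5.8 CPM (3.63 ± 0.36), and the Fos gene kay from 286, 275 and 276 CPM to 434, 470.2 and 466 CPM (0.71 ± 0.05). puc, the feedback phosphatase of the pathway, rose little (0.21), and the kinase bsk itself was at 92.3 to 94.2 CPM and did not pass. Receptor-proximal members Traf4 (-1.02) and wgn (-0.71) fell. Of 19 tested apoptosis genes 15 rose and 2 fell (median 0.49). The death gene rpr (0.577, 1.09 and 0.833 CPM in WT, 3.97, 4.0 and 4.0 CPM in the knockdown) rose at a low level, while p53 (0.94) and the caspase genes Strica (dream, 1.5) and Dronc (Nc, 0.64) rose from higher ones. The death gene skl, also counted as rising, had 0 counts in every WT library and 8, 1 and 4 in the knockdown. It passed the count minimum only through the knockdown, so its call is a description. Buffy, of the anti-apoptotic Bcl-2 kind, rose as well (1.75), and the checkpoint kinase lok fell (-0.99).

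Most glutathione S-transferase genes rose. Of 29 tested members among 35 listed, which conjugate glutathione to electrophiles, 20 rose and 2 fell (median 1.92). GstD1 went from 20.9, 20.9 and 21.1 CPM to 184, 221 and 216 CPM (log2 fold change 3.3 ± 0.07), GstE9 from 6.44, 5.27 and 4.67 CPM to 82.6, 87.4 and 91.3 CPM (4.0 ± 0.11) and GstD9 from 4.8, 3.81 and 7.0 CPM to 74.5, 88.5 and 80.5 CPM (3.94 ± 0.12). GstD10 had no count in WT and 11, 9 and 27 counts in the knockdown, so its direction was fixed by the count minimum. The members that fell were GstS1, given above, and GstE12 (-1.11). Summed over the family, the CPM was 2852, 2831 and 2924 in WT and 1860.0, 2113 and 2010.0 in the knockdown, and GstS1 alone held 2113, 2070.1 and 2153 CPM of the WT sum. The D and E genes lie in tandem arrays of similar copies, and reads shared between copies were not counted.

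Of the cytochrome P450 genes, 29 rose and 7 fell of 52 tested among 82 listed (median 1.38). Cyp28d1 rose from 19.2, 13.9 and 16 CPM to 83.7, 93.9 and 83.4 CPM (log2 fold change 2.41 ± 0.09) and Cyp4e2 from 29.7, 30.3 and 26.1 CPM to 112, 108 and 104 CPM (1.91 ± 0.08), while Cyp4g15 fell as given above and Cyp4d2 fell by less (-0.58). The genes of the antioxidant list, which holds cnc, the fly Nrf2, and its inhibitor Keap1, rose in 16 of 24 tested cases and fell in 1 (median 0.45). Zw, the entry enzyme of the pentose phosphate pathway, went from 20.9, 18.6 and 20.2 CPM to 66.5, 68 and 68.3 CPM (log2 fold change 1.77 ± 0.09), and Gclc, which limits glutathione synthesis, from 97.8, 96 and 92.7 CPM to 241, 235 and 237 CPM (1.32 ± 0.05). Keap1 (1.24) and cnc (0.38) themselves rose. Sod1 (Sod) was the member that fell (-0.15), a call lost without WT replicate 3 (edgeR adjusted p = 0.10) or knockdown replicate 1 (edgeR adjusted p = 0.11), and Sod2 was at 168 to 172 CPM and did not pass. cnc and Sod1 lost their call in the fit of all 12 libraries.

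The mRNAs of glycolysis genes were higher along most of the pathway, with no member called downward (15 rose and 0 fell of 20 tested among 21 listed, median 0.61). From sugar entry to lactate, Glut1, a glucose transporter, rose from 1.06, 0.636 and 0.417 CPM to 10.2, 8.99 and 9.47 CPM (log2 fold change 3.77 ± 0.28) and hexokinase A (Hex-A) from 319, 306 and 312 CPM to 585, 573 and 611 CPM (0.92 ± 0.05). Phosphofructokinase (Pfk, 0.61), aldolase (Ald1, Ald in the files, 1.15), triosephosphate isomerase (Tpi, 0.60), both GAPDH genes (Gapdh1 0.61, Gapdh2 0.61) and enolase (Eno, 0.41) rose. Phosphoglycerate kinase (Pgk, 480.0 to 443 CPM) and pyruvate kinase (PyK, 977 to 1052 CPM) did not pass. Without knockdown replicate 2, Pgk was called downward (log2 fold change -0.17, edgeR adjusted p = 0.0039). Ldh, given above, had the largest rise among the abundant members, and sima, the fly HIF alpha subunit, rose by less (0.63). Pfk and Eno lost their call in the fit of all 12 libraries.

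Genes of the unfolded protein and integrated stress responses rose in 15 of 21 cases and fell in 1 (median 0.58). The translation inhibitor Thor, the fly 4E-BP, went from 21, 23.3 and 25.2 CPM to 111, 127 and 139 CPM (log2 fold change 2.44 ± 0.08). The endoplasmic reticulum chaperone BiP (Hsc70-3) rose from 902, 916 and 955 CPM to 1841, 1813 and 1725 CPM (0.96 ± 0.05), its exchange factor Sil1 (CG10420) by more (1.93), and Gp93 by a like amount (0.96). Xbp1 rose slightly (0.23), crc, the fly ATF4, was at 870.0 to 845 CPM and did not pass, and Atf6 fell (-0.51). Hsc70-3 and Xbp1 lost their call in the fit of all 12 libraries.

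**Figure D4:**
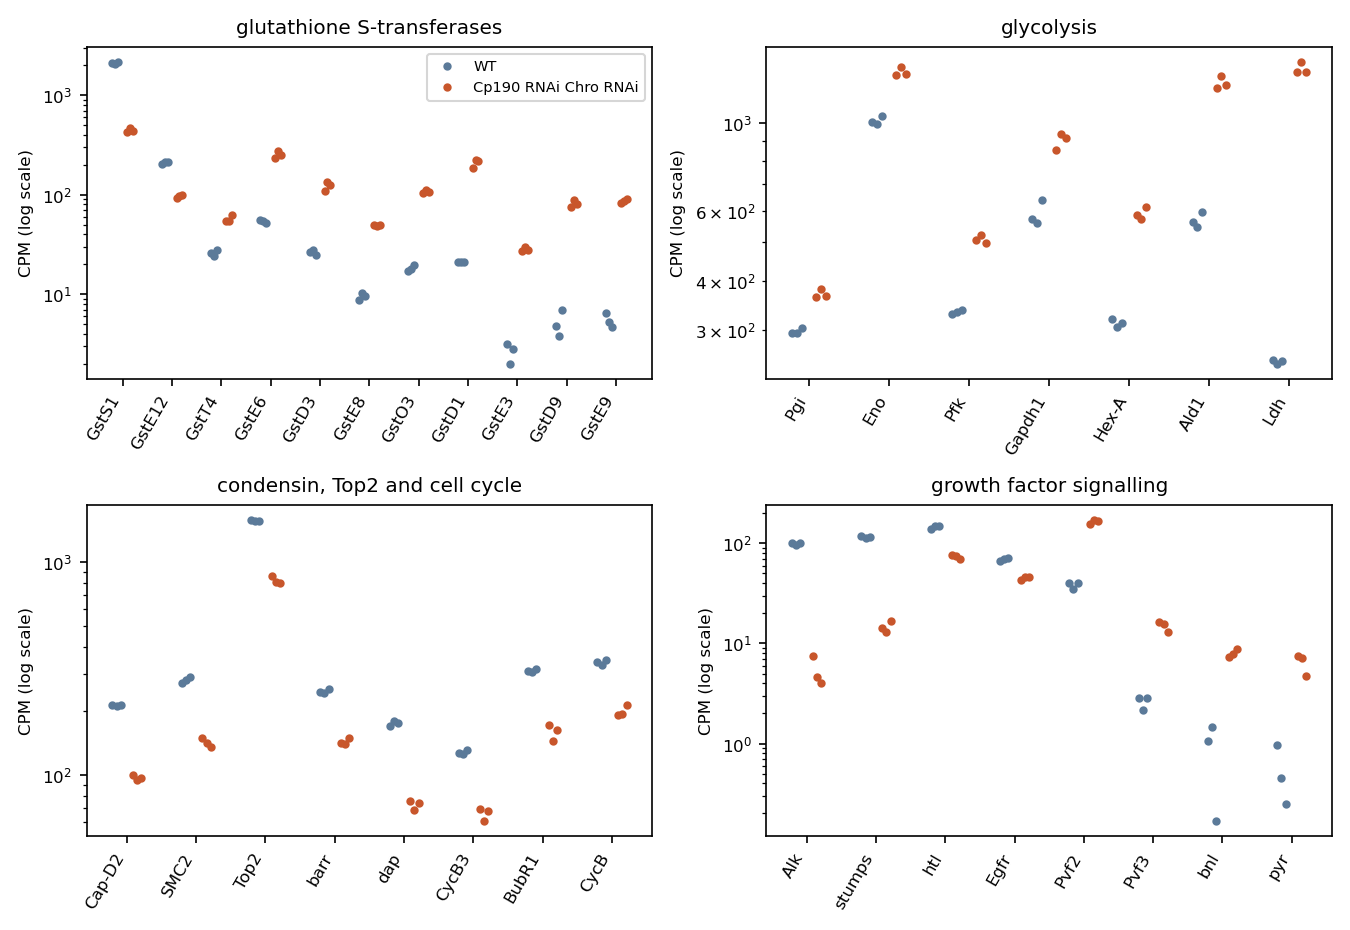
CPM of named members in each library (y axis, log scale), with 3 WT points and 3 Cp190 RNAi Chro RNAi points per gene, in 4 panels. The groups do not overlap for any gene shown. GstS1 and GstE12 lie lower in the knockdown and the other GST genes higher, glycolytic genes shown lie higher, condensin, Top2 and cell cycle genes shown lie lower, and in growth factor signalling the ligands Pvf2, Pvf3, bnl and pyr lie higher while Alk, stumps, htl and Egfr lie lower.

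Markers of cell types were checked because the line is named for the nervous system. WT libraries held reads of the neuronal gene elav (78.5, 78.1 and 75 CPM) and the glial gene repo (58.8, 62.2 and 59 CPM), but the synaptic gene nSyb (mean 0.374 CPM), the neuroblast gene dpn (0.178 CPM), the muscle gene Mhc (0.0901 CPM), the germline gene vas (0.815 CPM) and the hemocyte genes Hml (0.636 CPM) and eater (1.66 CPM) were near 0. The neuroblast gene mira, given below, lay well above these levels in WT. The hemocyte factor srp was abundant (800.1 CPM) and fell (-0.31). elav (0.46) and repo (0.38) rose in the knockdown by less than 1 on the log2 scale. Both srp and repo lost their call in the fit of all 12 libraries.

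Of 35 gut genes 3 were tested, of which 1 rose and none fell. The other lists of markers held genes that rose and genes that fell. In neuroblast genes, 8 rose and 3 fell of 15 tested among 29 listed, median 1.70, summed CPM 505, 504 and 501 in WT and 356, 325 and 359.6 in the knockdown. mira, which segregates fate determinants in dividing neuroblasts, fell from 38.3, 37.8 and 35.7 CPM to 5.09, 1.7 and 1.96 CPM (log2 fold change -3.65 ± 0.18), numb fell (-1.1), and insc (2.47) and pros (1.86) rose from about 2 CPM. Neuron genes (12 rose and 2 fell of 23 tested among 38 listed, median 0.46, summed CPM 1896, 1755 and 1730.0 in WT and 3240.0, 2904 and 3071 in the knockdown) included Snap25, which rose from 2.21, 2.27 and 1.5 CPM to 17.8, 19.6 and 19.2 CPM, and their median was 0.75 with filterByExpr. In glia genes (10 rose and 7 fell of 18 tested among 24 listed, median 0.31, summed CPM 2620.0, 2592 and 2653 in WT and 2396, 2412 and 2373 in the knockdown) Cyp4g15, given above, nrv2 (-1.52) and the glutamate transporter Eaat1 (-1.44) fell, while the septate junction genes Gli (3.2) and Lac (1.04) rose. The fit of all 12 libraries called 4 glia genes downward.

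Hemocyte (8 rose and 3 fell of 18 tested among 24 listed, median 0.42, summed CPM 6089, 6137 and 6291 in WT and 8097, 7647 and 7953 in the knockdown) and muscle genes (10 rose and 4 fell of 21 tested among 30 listed, median 1.45, summed CPM 1534, 1484 and 1507 in WT and 1700.0, 1605 and 1669 in the knockdown) had members that rose at low levels, such as Mhc, which reached 1.46 CPM in the knockdown, and the giant sarcomere genes sls (2.24) and bt (3.4). The hemocyte median was 0.28 without knockdown replicate 1, 0.19 without knockdown replicate 3 and 0.67 with a filter of 1 count and in the fit of all 12 libraries, the latter with no hemocyte gene that fell. The muscle median was 0.25 with filterByExpr and 0.83 in the fit of all 12 libraries, where 2 muscle genes fell. Of the defining markers named, nSyb, dpn, Hml and eater did not pass the test. Germline genes mostly rose (14 rose and 3 fell of 19 tested among 21 listed, median 1.22, summed CPM 826, 799 and 782 in WT and 1021, 969.5 and 961 in the knockdown). Among genes of the piRNA pathway, mael went from 5.67, 3.27 and 4.83 CPM to 58.6, 55.4 and 54.8 CPM (log2 fold change 3.62 ± 0.13), AGO3 from 1.44, 0.999 and 0.916 CPM to 11.6, 10.7 and 9.14 CPM (3.23 ± 0.25) and aub from 33.7, 34.9 and 34.7 CPM to 128, 122 and 116 CPM (1.83 ± 0.07), while krimp fell (-0.79) and piwi stood at 7.13 to 5.44 CPM without passing. bam, which starts germ cell differentiation, rose from 0.192, 0.272 and 0 CPM to 1.72, 1.9 and 2.29 CPM. vas reached 2.67, 2.8 and 3.1 CPM. Fat body and lipid storage genes (16 rose and 3 fell of 22 tested among 29 listed, median 0.31, summed CPM 8474, 8468 and 8645 in WT and 10150.0, 9546 and 9635 in the knockdown) rose in 16 of 22 tested cases (9 in the fit of all 12 libraries), and of 97 cuticle protein genes 11 were tested, of which 5 rose and 1 fell (2 rose without knockdown replicate 2, 3 without knockdown replicate 3 and 1 with filterByExpr). In bulk RNA a change in the share of cells of a type and a change in RNA per cell cannot be told apart, and the part of these markers in the other results was not tested.

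Basement membrane genes split (12 rose and 6 fell of 20 tested among 22 listed, median 0.43). The laminin chains LanB1 (6745 to 3132 CPM, log2 fold change -1.11 ± 0.05), LanB2 (-0.40) and LanA (-0.20) and the perlecan gene trol (-0.57) fell. The collagen IV chains Col4a1 (Cg25C, 0.68) and vkg (0.52), the laminin alpha chain wb (1.33), the metalloproteinase inhibitor Timp (2.57) and nidogen (Ndg, 0.192, 0.272 and 0.0833 CPM in WT and 5.52, 4.2 and 4.74 CPM in the knockdown) rose. The fit of all 12 libraries called 1 member downward, and trol, LanB2, LanA and vkg lost their call.

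Promoters were read from the dm6 sequence of RefSeq for 9682 tested genes, from 250 bases before to 50 bases after the annotated start. The promoters of genes that the results above turn on are shown in gene orientation, with every match in capitals to the DRE (TATCGATA), the BEAF-32 core CGATA, the GAGA element GAGAG and the Motif 1 core GGTCACACT on either strand, or to the initiator core TCAGT and the TATA box TATAAA on the gene strand. Every DRE also holds the BEAF-32 core. nebu had the smallest p among genes that rose and Cyp4g15 the smallest among those that fell after Idgf6, Ldh had the smallest p in the glycolysis list, and Bub3 and Gnf1 are replication or cell cycle genes that fell and hold a DRE.
nebu: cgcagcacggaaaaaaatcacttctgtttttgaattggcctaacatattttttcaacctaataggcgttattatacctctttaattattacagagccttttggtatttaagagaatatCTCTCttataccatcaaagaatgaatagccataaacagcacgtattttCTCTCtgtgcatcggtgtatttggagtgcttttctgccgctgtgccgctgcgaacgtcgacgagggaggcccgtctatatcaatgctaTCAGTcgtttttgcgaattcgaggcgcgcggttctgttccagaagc
Cyp4g15: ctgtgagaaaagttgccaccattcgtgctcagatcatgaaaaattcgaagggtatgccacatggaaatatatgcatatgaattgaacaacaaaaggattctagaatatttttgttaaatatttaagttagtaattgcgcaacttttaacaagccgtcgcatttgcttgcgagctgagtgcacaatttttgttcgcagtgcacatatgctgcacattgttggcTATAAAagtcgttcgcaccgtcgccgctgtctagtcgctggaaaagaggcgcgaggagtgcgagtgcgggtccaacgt
Ldh: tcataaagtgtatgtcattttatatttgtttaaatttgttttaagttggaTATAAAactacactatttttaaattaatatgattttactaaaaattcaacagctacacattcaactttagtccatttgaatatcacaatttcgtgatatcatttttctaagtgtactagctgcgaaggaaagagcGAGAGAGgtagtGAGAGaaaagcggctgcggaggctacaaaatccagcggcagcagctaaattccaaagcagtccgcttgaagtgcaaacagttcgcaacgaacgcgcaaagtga
Bub3: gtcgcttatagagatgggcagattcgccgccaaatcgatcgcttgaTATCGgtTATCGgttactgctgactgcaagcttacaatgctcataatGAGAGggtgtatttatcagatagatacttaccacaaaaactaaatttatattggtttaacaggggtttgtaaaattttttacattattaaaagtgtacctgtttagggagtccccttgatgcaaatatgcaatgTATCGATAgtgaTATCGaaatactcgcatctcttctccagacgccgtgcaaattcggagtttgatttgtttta
Gnf1: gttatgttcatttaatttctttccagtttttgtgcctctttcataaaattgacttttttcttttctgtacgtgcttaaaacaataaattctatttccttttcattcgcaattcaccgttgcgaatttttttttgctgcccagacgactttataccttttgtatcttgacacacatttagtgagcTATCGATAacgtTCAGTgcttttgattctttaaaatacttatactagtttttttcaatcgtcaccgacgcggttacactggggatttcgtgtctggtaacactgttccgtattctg
They lie at chr3L:12843057-12843356 (minus strand), chrX:11476808-11477107 (plus), chr3L:6262645-6262944 (minus), chr3R:29675372-29675671 (minus) and chr3R:4906372-4906671 (plus). In Cyp4g15 the TATA box begins 28 bases before the start, in Bub3 the DRE begins 23 bases and in Gnf1 66 bases before it, and in Ldh 3 GAGA matches lie between 65 and 53 bases before it.

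The DRE was in 12.6% of all tested promoters, in 9.40% of those of genes that rose and in 17.2% of those of genes that fell. Among DEGs it was rarer in either direction, at 3.17% of 695 that rose and 1 of 107 that fell. It was also rare at low levels, in 28 of 1492 promoters under 1 CPM and in 81 of 1617 at 1 to 10 CPM. The DEG shares were not split by level. Seen from the promoters, 22.9% of 1221 genes with a DRE rose and 41.2% fell, beside 31.8% and 28.6% of 8461 genes without one. Genes with a DRE were more abundant (median 66.2 against 28.9 CPM), and direction went with level. Within levels, 50.5% of those above 100 CPM fell beside 44% of those without a DRE, 38.8% beside 35.3% at 10 to 100 CPM, 22.2% beside 16.7% at 1 to 10 CPM and 0 of 28 beside 4.03% under 1 CPM, where 42.9% of genes with a DRE rose beside 28.9%. By list, the DRE was in 27 of 87 promoters of cytoplasmic ribosomal proteins, 11 of 38 of replication, 4 of 21 of the unfolded protein response, 7 of 39 of the cell cycle, 2 of 29 of glutathione S-transferases and 1 of 20 of glycolysis. Motif 1, whose genes were also more abundant (median 74.9 against 29.9 CPM) and were not split by level, was in 8.37% of all promoters, 6.61% of those that rose, 11.2% of those that fell and 0 of 107 DEGs that fell. The GAGA element went the other way, in 2904 of the 9682 promoters, 35.1% of those that rose and 26.1% of those that fell, and it was in 44.6% and 47.7% of promoters of DEGs that rose and fell. The initiator core had like shares of 32.5%, 36.4% and 29.9%, with 47.2% and 47.7% in DEGs, and the TATA box was in 29.1%, 29.3% and 28.9%. Genes with a GAGA element (median 23.5 against 36.5 CPM) or an initiator core (22.5 against 39.2 CPM) were less abundant. Shares of these motifs were not split by level either. A match is a run of letters and not a bound site.

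Chromosome 4, the small chromosome that is rich in heterochromatin, had the highest share of genes that fell. Of its 93 tested genes 52 fell (55.9%) and 16 rose (17.2%), while on 2L, 2R, 3L, 3R and X 28.2 to 31.1% fell. Among genes with a mean of at least 10 CPM, 48 of 60 on chromosome 4 fell (80.0%) and 5 rose, beside 37.0 to 40.6% falling on those arms. The median log2 fold change of these 60 genes was -0.56, with quartiles of -0.77 and -0.25, while the medians of the other arms lay between -0.087 and -0.034. Chromosome 4 held 2.14, 2.05 and 2.03% of the counts of the WT libraries and 1.62, 1.58 and 1.56% of those of the knockdown, without overlap. An exact two-sided permutation test of this share over the 3 against 3 libraries gave p = 0.10, the smallest that this design allows. Groups without overlap always give this value, and chromosome 4 was singled out by its share in these data. The test therefore adds no support.

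The genes of chromosome 4 that fell include transcription factors and a guidance receptor. The zinc finger gene Lin29 went from 2008, 1878 and 1994 CPM to 592, 589 and 603 CPM (log2 fold change -1.72 ± 0.05), zfh2 from 62.7, 50.9 and 53.5 CPM to 7.24, 6.69 and 8.33 CPM (-2.9 ± 0.12), the semaphorin receptor PlexB from 442, 441 and 432 CPM to 173, 173 and 160.4 CPM (-1.38 ± 0.05), and ci is given above. unc-13, of synaptic vesicle priming, was the most abundant gene there to rise (0.88). Pof, which encodes the protein that coats chromosome 4 and itself lies on 2R, was at 46.3 to 43.4 CPM and did not pass, though it did without knockdown replicate 3 (edgeR adjusted p = 0.049). In the fit of the knockdowns alone, without BEAF-32 RNAi replicate 3, the median log2 difference of the 60 genes was -0.11 against BEAF-32 RNAi and -0.042 against BEAF-32 RNAi Dref RNAi, both smaller than the difference from WT.

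**Figure D5:**
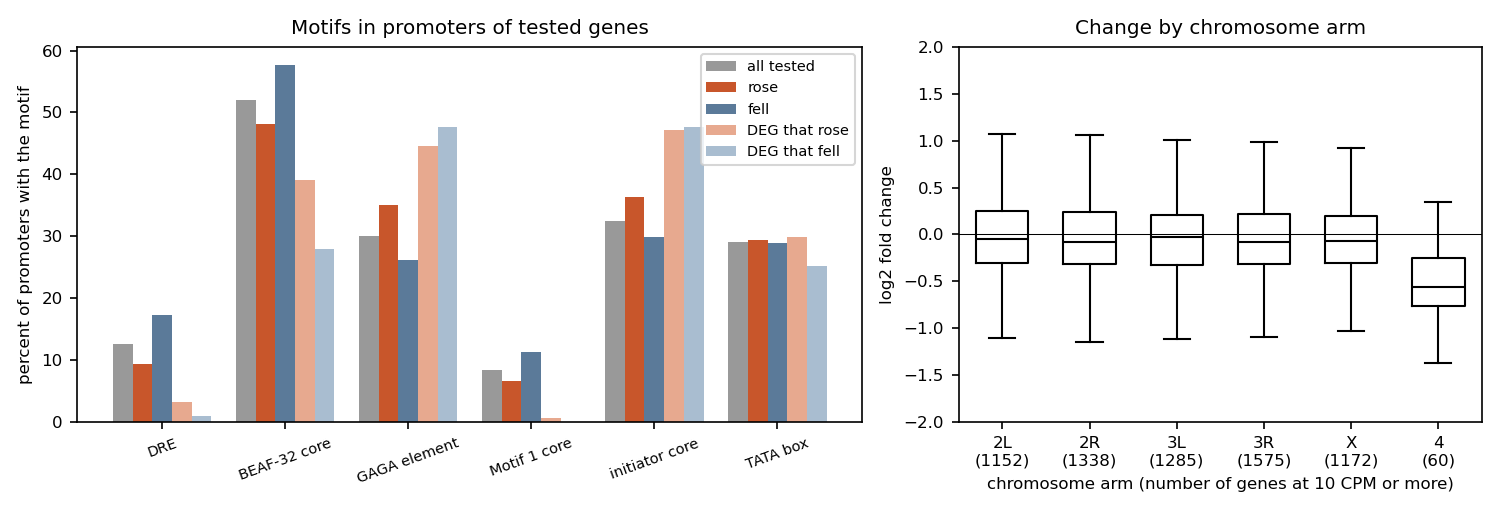
Left, percent of promoters with each motif (y axis) among all tested genes, genes that rose or fell, and DEGs. Right, log2 fold change (y axis) of genes with a mean of at least 10 CPM by chromosome arm, as boxes of median and quartiles with whiskers to 1.5 times the quartile range, outliers not drawn. The DRE and Motif 1 are more frequent among genes that fell and rare among DEGs, and the box of chromosome 4 (60 genes) lies below 0 with a median of -0.56. Motif shares are not matched for level.

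Positions relative to chromatin domains of the same knockdown came from 2156 TADs and 2154 loops called on merged Hi-C replicates. The start site of a tested gene lay a median of 9.88 kb from the nearest TAD border. For genes that fell the median was 9.12 kb, with 25.3% of starts within 2 kb of a border, beside a median of 10 kb and 20.4% for genes that rose and 21.5% within 2 kb for all tested genes. DEGs had larger median distances, at 12.5 kb (9.64% within 2 kb) for those that rose and 14 kb (15%) for those that fell. Genes that fell were more abundant than genes that rose (median 66.5 against 30.7 CPM), and positions were not split by level. The paper reports its DEGs as placed at random inside TADs, with no preference for or against borders. A start site inside a loop anchor was found for 5.29% of tested genes, 5.53% of those that rose and 5.03% of those that fell. Among DEGs it was 6.19% and 4.67%.

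Adjacent called genes moved the same way more often than not. Of 3716 pairs of adjacent tested genes that were both called, 2288 (61.6%) moved the same way, 1190 pairs up and 1098 down. Of 726 such pairs with divergent starts within 1 kb, 435 (59.9%) did so, 156 up and 279 down. Of runs of adjacent DEGs that rose, the longest held 6 tested genes at the GstD cluster (chr3R:12360008-12373813, CG4115, GstD10, GstD9, GstD1, GstD2 and GstD3). GstD10 had no count in WT, so its direction was fixed by the count minimum. Runs of 5 were found around Ldh (chr3L:6234323-6263399, CG10226, Best2, CG10163, ImpL3 and CR44522) and on 2L (chr2L:8338287-8355172, CG14274, CG14273, CR45371, CG7778 and Mur29B). Over the WT libraries CG10226, Best2 and CG14274 had 1 count each, and CG14273 and CR45371 had 3 each. The count minimum fixed the direction of these members too. No run of 3 or more adjacent DEGs that fell was found, but there were only 108 such DEGs beside 697 that rose. Copies of a tandem family share sequence, and reads at overlapping genes are shared, so neighbours are not independent.

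Whether any change was particular to this knockdown was examined without the shared WT libraries, in a fit of the 9 knockdown libraries over 10367 genes. No gene was higher, and none lower, than in both other knockdowns at an edgeR adjusted p under 0.05. At an unadjusted p under 0.05 there were 47 higher and 40 lower. DESeq2 was fitted apart to each pair of groups, so its fit against BEAF-32 RNAi Dref RNAi held no BEAF-32 RNAi library. It called 25 higher and 20 lower than in both. Against BEAF-32 RNAi alone 261 genes (2.52%) were called, and against BEAF-32 RNAi Dref RNAi 0 (235 at an unadjusted p under 0.05, 896 by the DESeq2 fit of that pair). The edgeR and DESeq2 numbers thus differ in the libraries fitted as well as in method. BEAF-32 RNAi replicate 3 stood apart, with 29.5% of reads without a unique alignment beside 21 and 21.9% in its replicates, a lower Chro mRNA and a BEAF-32 mRNA of 74.8 CPM where the replicates had 41.0 and 44.6 CPM. Without it 3796 of 10189 genes (37.3%) differed from BEAF-32 RNAi, 1111 from BEAF-32 RNAi Dref RNAi, and 117 were higher and 78 lower than in both.

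The genes named here were chosen after their values were seen, with that library left out, and none passed with it. Oaz, a zinc finger factor, was at 6.31, 7.07 and 9.74 CPM in Cp190 RNAi Chro RNAi, at 2.78 and 2.64 CPM in BEAF-32 RNAi and at 4.68, 4.87 and 4.37 CPM in BEAF-32 RNAi Dref RNAi, with log2 differences of 1.51 ± 0.27 and 0.74 ± 0.21. CG6293, a predicted nucleobase or ascorbate transporter, was at 142, 137 and 133 CPM, at 87 and 90.4 CPM in BEAF-32 RNAi and at 84.5, 91.2 and 90.7 CPM with BEAF-32 RNAi Dref RNAi (log2 differences 0.63 ± 0.07 and 0.63 ± 0.06). BEAF-32, which was the RNAi target in both other knockdowns, was among the genes that were higher (log2 differences 0.77 ± 0.09 and 0.41 ± 0.08). Among those that were lower, dimm, a bHLH factor of neurosecretory cells, was at 1.4, 0.808 and 1.16 CPM, at 4.06 and 4.0 CPM in BEAF-32 RNAi and at 2.44, 2.5 and 2.13 CPM with BEAF-32 RNAi Dref RNAi (log2 differences -1.82 ± 0.35 and -1.05 ± 0.36). Cp190 and Chro were not among the genes lower than in both.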

How the data were processed

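RNA-seq of 6 libraries, 3 of WT and 3 of Cp190 RNAi Chro RNAi BG3 cells, was used, with the 6 libraries of the other knockdowns for 1 comparison. The deposited counts per gene were made by the authors with HTSeq at its default strand setting, from reads trimmed by Trimmomatic 0.39, mapped on dm6 by TopHat2 2.1.2 (with Bowtie2 2.3.4.1) and freed of duplicates by Picard. Whether the kit keeps strand is not given in the sources. TADs with a separation score and loops with an observed contact signal, as deposited by the authors, came from merged Hi-C replicates. Only their positions were used.

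HTSeq lines that name no gene were left out of library sizes (in the 6 libraries 41.3 to 44.1% of reads at no feature and 16 to 22.5% without a unique alignment). Counts were tested with edgeR 4.0.16 (R 4.3.3), with TMM scaling and the quasi-likelihood F test, two-sided, over genes with at least 10 counts in total. P-values were adjusted by Benjamini and Hochberg over all tested genes, and 0.05 was the threshold. Standard errors were approximated by dividing the absolute log2 fold change by the root of its F statistic. The code was tested on simulated data with 200 changed genes. That setting does not cover data in which 60.8% of tested genes are called. For a group without counts, a lower bound of the fold was computed with 3 counts for the group, and such bounds and the 95% intervals cover counting error only. Start sites, exons and sequences are those of the RefSeq table and genome of the dm6 assembly.

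Gene lists and members were chosen with earlier results of these data known, and lists were not tested as sets. Genes were named by rule: the RNAi targets, the 14 largest rises and 14 largest falls with at least 10 counts in each library of the higher group and no overlap, the 6 smallest p in each direction, up to 4 smallest p per direction in each list, and 8 per direction against the other knockdowns. Other genes were named for their role after their values were seen. Alternatives were DESeq2 1.42.0 (its size factors and its Wald test), other scalings and filters, robust dispersion, all 12 libraries, a replicate block and leaving out each library.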

Additional observations from a re-analysis of the deposited data

How the results depend on the processing

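In the comparison with WT, the number of genes that rose or fell stayed within 1.5 times of 2977 and 2941 under every alternative except a fit of all 12 libraries, with 1890 and 1648. There the spread is estimated over all groups, and the cause of the loss was not tested. filterByExpr, which tests fewer genes (8404), left 410 DEGs that rose and 71 that fell. Leaving out 1 library at a time gave 2716 to 2878 genes that rose, 2684 to 2893 that fell, 625 to 701 DEGs that rose and 99 to 110 that fell. Other scalings moved the median log2 fold change of all genes by at most 0.024. Of 161 named genes that were called, 27 lost the call in the fit of all 12 libraries, 2 with the DESeq2 Wald test and 6 when some 1 library was left out, and none changed direction. Of 900 counts of called list members under the alternatives, 59 moved by more than 1.5 times, 25 of them in the fit of all 12 libraries. Of the other 34, those not given above changed by at most 3 genes. Of those that had not passed, vn, PyK, Hml, eater, piwi and Pof were called without knockdown replicate 3, vn and Hml also without WT replicate 1, and Pgk without knockdown replicate 2. Against the other knockdowns, the numbers higher and lower than in both were 0 and 0, and leaving out 1 library at a time gave 0 to 117 and 0 to 78, with 117 and 78 only without BEAF-32 RNAi replicate 3. Groups share replicate numbers, but same-numbered libraries did not deviate together (correlations of -0.0037, 0.0081 and 0.0016 over 6609 genes), so the numbers do not pair them. With a replicate block 2951 genes rose and 2972 fell, with 685 and 100 DEGs, and 0 and 0 genes were higher and lower than in both other knockdowns. Genes under about 1 CPM rest on a few counts per library, which limits what can be called there.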
